A study of Arabidopsis thaliana with 12 samples.

Results

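UDP-sugar glycosyltransferases move a sugar from a nucleotide sugar such as UDP-glucose onto an acceptor. In plants the large UGT family puts glucose, rhamnose or arabinose onto small molecules, among them flavonols, the building blocks of lignin, hydroxycinnamic acids, several hormones and foreign compounds. The added sugar generally makes the acceptor more soluble, fits it for storage in the vacuole and, for hormones, lowers activity. Which acceptor a given enzyme uses in the plant is often known only in part, because many UGT proteins accept several compounds in the test tube.

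The genes described here are the 60 loci whose description in the authors' table of array results contains the words UDP-glucosyl or UDP-glycosyl and which have a probe set that names them alone. They were taken from 22746 measured probe sets, and 21279 loci have a probe set of their own. The description matched 64 probe sets, of which 3 name several loci and were left out. The rule also leaves out 3 loci, and 1 of these (UGT74B1) was among the matches. The rule reads the annotation alone. Of the 60 genes, 50 carry a UGT number in their name, the IAGLU and GT72B1 loci included. The other 10 go against the description as transferases of small molecules. They are the sucrose synthases SUS1 to SUS6, which supply UDP-glucose, the lipid synthases SQD2, MGD1 and DGD2, and EPC1, a glycosyltransferase required for cell adhesion. A further 46 single-locus probe sets carry the same words elsewhere in their annotation but have a blank description, and are not among the 60.

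The series set the Arabidopsis thaliana knockout pdx1.3 against its wild type (WT), both in the Col-0 background. The lost gene, PDX1.3, codes for part of the synthase with which plants build vitamin B6 themselves. The 4 groups were pdx1.3 leaves, WT leaves, pdx1.3 roots and WT roots of 10-day-old seedlings, with 3 biological replicates each according to the series design, so the 12 Affymetrix ATH1 arrays measure spread between biological samples. All seedlings grew without vitamin B6 on 0.5-strength Murashige and Skoog medium with 1% sucrose, at 22 °C during 16 h of light and 18 °C during 8 h of darkness. Only 1 mutant line was measured and no rescued line, so what the loss of PDX1.3 does and what else sets this line apart from WT cannot be told apart. Whole organs were extracted, and fewer cells of a type and less RNA per cell cannot be told apart.

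The groups follow the sample titles. In the sample characteristics the genotype is swapped throughout (12 of 12 samples), and the level of PDX1.3 (AT5G01410) sides with the titles: its signals were 40.5, 38.2 and 50.5 in pdx1.3 leaves, against 591, 942 and 935 in WT leaves, and for roots 116, 95.8 and 82.1 in pdx1.3, against 264, 282 and 282 in WT. The arrays had 64.3 to 72.8% of probe sets called present, and their actin 3'/5' ratios, a measure of RNA integrity, ranged from 3.12 to 8.71 in pdx1.3 leaves, from 5.6 to 8.27 in WT leaves, from 2.97 to 6.59 in pdx1.3 roots and from 4.45 to 6.4 in WT roots. The summed signal of 4 photosynthetic leaf markers was 18039 to 20688 in pdx1.3 leaves and 18402 to 23995 in WT leaves, and that of 8 root markers was 229 to 309 in pdx1.3 leaves and 213 to 271 in WT leaves. The root markers EXPA7, CASP1, IRT1, NRT2:1 and RHD6 were called absent on all leaf arrays, but NRT2:1 was absent on all WT root arrays as well. SHV2 was absent on all pdx1.3 leaf arrays but not on all WT leaf arrays. Of the 8 root markers, 2 were present on all pdx1.3 leaf arrays and 1 on all WT leaf arrays. WT leaves replicate 1 had the highest of the 3 WT leaf signals in 35 of the 60 genes, a count not made over all probe sets. For several of the results below, values are given with and without this array.

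All levels below are the authors' MAS5 signals, a linear intensity per probe set on arrays scaled to a common mean. Changes are log2 differences after 16 was added to each signal, which understates the changes of dim genes, and come with the standard error (SE) of the fit. A gene was called at a limma p-value under 0.05 after Benjamini-Hochberg adjustment over all 22746 probe sets. Apart from the bounds given for absent genes, signals of different probe sets are not compared with each other, because each has its own probes.

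The first comparison, pdx1.3 against WT leaves, asked which glycosyltransferase transcripts differ in the green organ of the mutant. Genes for flavonol glycosylation (UGT78D1 and UGT78D2), for conjugation of phenolics and foreign compounds (GT72B1) and for hydroxycinnamate esters (UGT84A3) were higher in pdx1.3 leaves. So was UGT72B3, a member of the same subfamily as GT72B1. Genes for a monolignol enzyme (UGT72E1) and a zeatin enzyme (UGT85A1) were lower, as was UGT85A4. UGT85A5, UGT76E11, SUS3, UGT71C4 and UGT71B1 were called higher too. The calls of UGT72E1, UGT85A1, UGT84A3, UGT71C4 and UGT71B1 were lost in some of the 12 fits that each left out 1 array. The other calls were kept in all 12. In all, 13 of the 60 genes were called in leaves (21.7%), against 7.22% of all probe sets. Of these, 10 were higher in pdx1.3 leaves, where 4.7% of all probe sets were called higher, and 3 were lower, where 2.51% were called lower. The median change over the 60 genes was 0.02 on the log2 scale, against 0.01 over all probe sets. At an unadjusted p under 0.05 the count was 16 of 60, with a background of 21.2% of all probe sets. Mutant and WT arrays were fully separated in 19 of the 60 genes, against 24.6% of all probe sets. Among the 50 UGT genes 9 were called higher and 3 lower, and among the other 10 genes SUS3 alone was called. In a fit of the leaf arrays alone, which called 2.27% of all probe sets, 3 of the 13 calls were kept (UGT78D1, GT72B1 and UGT85A5). The other 10 had adjusted p of 0.0524 (UGT72B3) to 0.171 (UGT72E1). With 1 in place of 16 added to each signal, where 6.05% of all probe sets were called, 9 of the 13 calls were kept. Those of UGT85A5 (adjusted p = 0.150), UGT76E11 (0.132), UGT84A3 (0.0930) and UGT71B1 (0.0694) were lost.

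**Figure D1:**
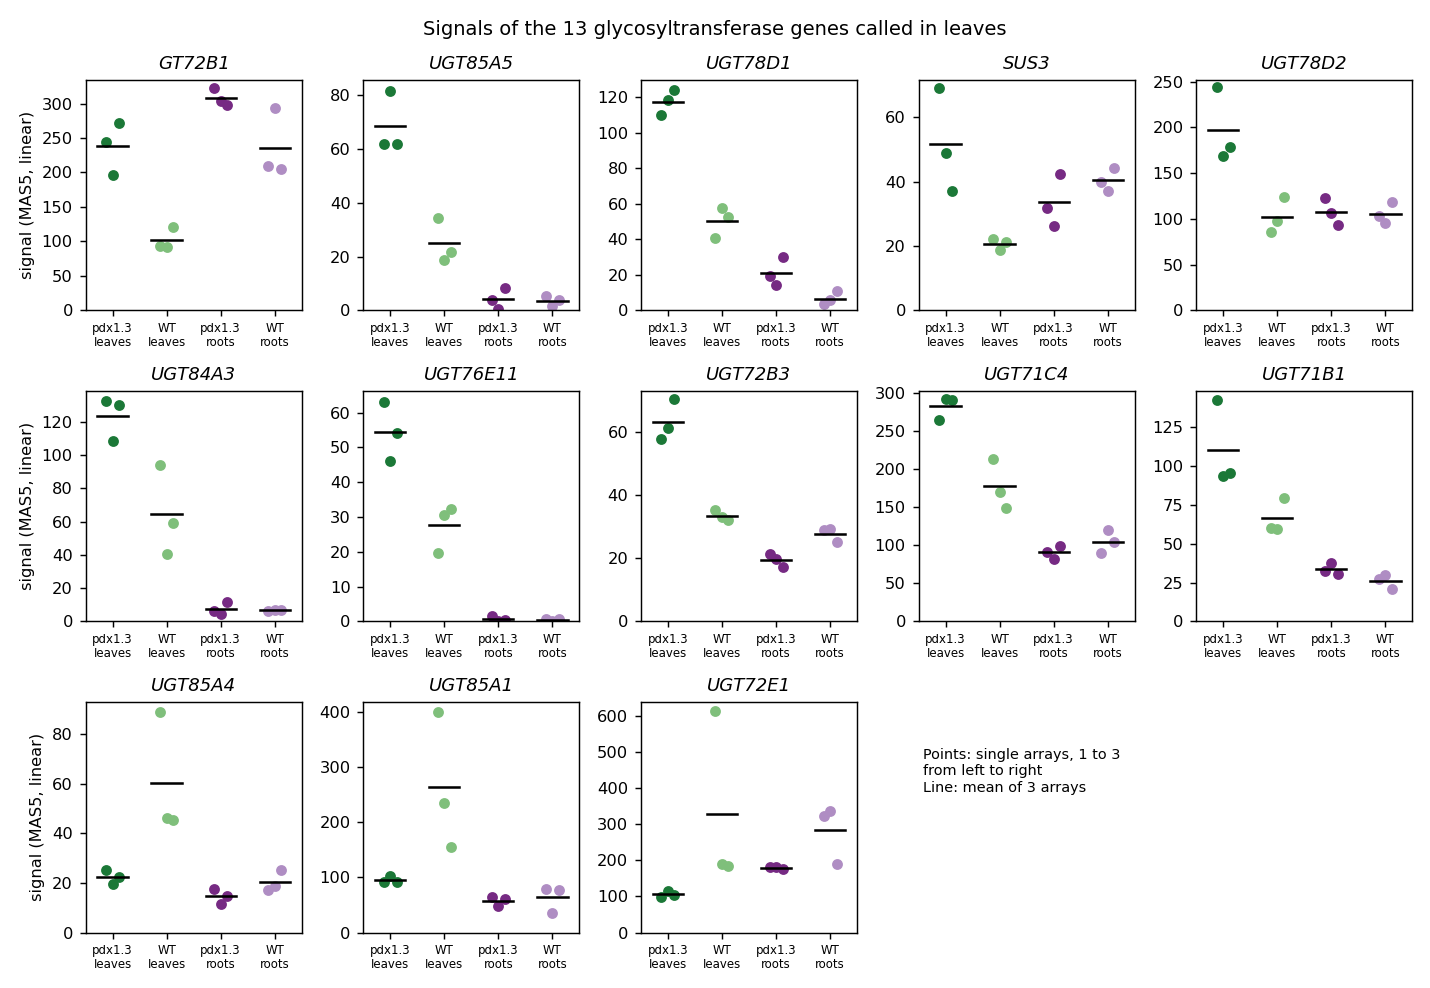
Signals (MAS5, linear) of the 13 glycosyltransferase genes called in leaves, with 1 point for each array in pdx1.3 leaves, WT leaves, pdx1.3 roots and WT roots and a line at the mean of 3 arrays. In each panel the points of pdx1.3 leaves and WT leaves do not overlap, and in UGT85A4, UGT85A1 and UGT72E1 the highest point belongs to WT leaves replicate 1.

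The flavonol enzymes come first. UGT78D1 (AT1G30530), which transfers rhamnose to the 3-position of flavonols, had signals of 110, 118 and 124 in pdx1.3 leaves, against 40.8, 57.4 and 52.4 in WT leaves. Every mutant array lay above every WT array. The means were 117 ± 7.06 and 50.2 ± 8.53 (SD, n = 3 each), which is 1.02 on the log2 scale (SE 0.18, limma adjusted p = 0.0041). In roots the gene read 19.2, 14.5 and 30.2 in pdx1.3 and 3.6, 5.6 and 10.7 in WT, where 1 of 3 arrays was called absent. These groups did not overlap either, and the root change of 0.71 was not called (adjusted p = 0.106). UGT78D2 (AT5G17050), the flavonoid 3-O-glucosyltransferase, had signals of 244, 169 and 178 in pdx1.3 leaves, against 85.4, 97.9 and 124 in WT leaves. The lowest mutant array lay above the highest WT array, and the change was 0.84 (SE 0.17, adjusted p = 0.0089). In roots its means were close, at 108 ± 14.7 in pdx1.3 and 106 ± 12.0 in WT (SD, n = 3 each). Without both leaf arrays numbered 1 the leaf change of UGT78D2 was 0.59 and no longer called (adjusted p = 0.0529).

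The neighbouring UGT78D3 (AT5G17030), a flavonol arabinosyltransferase, was called absent on all 12 arrays, so its change of 0.02 (adjusted p = 0.955) says nothing of its level. The list of flavonol genes has 6 measured loci, 3 of them outside the 60. In leaves 3 of the 6 were called higher and 0 lower, against 4.7% and 2.51% of all probe sets. This list, like the others, was chosen with earlier results of these data known. The third is AT1G06000, which the files name only as a glucosyltransferase family protein, with signals of 99.2, 79.8 and 90.3 in pdx1.3 leaves, against 6.69, 29.8 and 47.8 in WT leaves (log2 1.38, SE 0.28, adjusted p = 0.0099). The other two, AT2G22590 and AT5G54010, had changes of 0.02 and -0.06. Of the 21 genes among the 60 that are annotated with an activity on quercetin, a flavonol, 6 were called higher and 0 lower, and of the other 29 UGT genes 3 were called higher and 3 lower. Such annotations rest largely on assays of the protein, and the difference between these shares was not tested.

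The genes of the monolignol list, whose products act on lignin precursors and related phenolics, went both ways in leaves. Of its 6 measured loci 3 were called higher and 1 lower, against 4.7% and 2.51% of all probe sets. GT72B1 (AT4G01070, also UGT72B1), known for conjugating chlorinated phenols and anilines, had signals of 244, 197 and 272 in pdx1.3 leaves, against 93.7, 91.8 and 121 in WT leaves. The groups stood well apart, 1.10 apart on the log2 scale (SE 0.16, adjusted p = 0.0016). In roots its signals were 323, 303 and 298 in pdx1.3 and 209, 294 and 205 in WT, without overlap but not called (0.38, adjusted p = 0.632). UGT72B3 (AT1G01420), a member of the same subfamily, read 57.7, 61.2 and 70.3 in pdx1.3 leaves and 35.2, 33.1 and 32.1 in WT leaves. This is a change of 0.67 (SE 0.12, adjusted p = 0.0043). The third gene called higher, AT1G01390, lies outside the 60 (0.72, adjusted p = 0.0045).

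UGT72E1 (AT3G50740), which glucosylates coniferyl alcohol and coniferaldehyde, moved the other way. It read 97.2, 114 and 105 in pdx1.3 leaves, against 612, 190 and 185 in WT leaves, so the mutant arrays lay together below all WT arrays and 1 WT array lay far above the rest. The change was -1.29 (SE 0.35, adjusted p = 0.0458). Without WT leaves replicate 1 it was -0.75 (adjusted p = 0.0423), and without both leaf arrays numbered 1 it was -0.70 and not called (adjusted p = 0.0905). The call was also lost in 8 of the 12 fits that each left out 1 array (adjusted p up to 0.123, without pdx1.3 leaves replicate 1). These were the fits without any 1 of the pdx1.3 leaf or pdx1.3 root arrays and those without WT roots replicate 1 or 2. Its relatives UGT72E2 and UGT72E3, also coniferyl alcohol glucosyltransferases, had leaf changes of -0.02 and -0.09, and neither was called.

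Of the 4 genes for esters of sinapate and other hydroxycinnamates, 1 was called, against 7.22% of all probe sets. UGT84A3 (AT4G15490) had signals of 132, 108 and 130 in pdx1.3 leaves, against 93.7, 40.5 and 59.2 in WT leaves. The lowest mutant array lay a little above the highest WT array, and the change was 0.84 (SE 0.21, adjusted p = 0.0282). Without WT leaves replicate 1 it was 1.09 (adjusted p = 0.0031). In 4 of the 12 fits that each left out 1 array the call was lost: those without pdx1.3 leaves replicates 1 and 3 (adjusted p of 0.0842 and 0.0808) and without WT leaves replicates 2 and 3 (0.0898, with a change of 0.61, and 0.0742). UGT84A2, another sinapate glucosyltransferase, read 152, 121 and 148 in pdx1.3 leaves, against 73.1, 113 and 116 in WT leaves, without overlap, and was not called (0.44, adjusted p = 0.293). UGT84A4 had a change of -0.01, and UGT84A1 was called absent on all 12 arrays.

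Among the hormone lists a cytokinin gene and a jasmonate gene were called, each 1 of 4 measured, against 7.22% of all probe sets. The jasmonate gene, UGT76E11, also counts among the quercetin genes above. UGT85A1 (AT1G22400), a zeatin O-glucosyltransferase, had signals of 91, 103 and 92.1 in pdx1.3 leaves, against 400, 236 and 156 in WT leaves. All mutant arrays lay below all WT arrays, and the WT arrays were widely spread, with replicate 1 highest. The change was -1.24 (SE 0.29, adjusted p = 0.0217), and -0.90 without WT leaves replicate 1 (adjusted p = 0.0496). The call was lost when a pdx1.3 leaf array was left out (adjusted p of 0.0643, 0.0534 and 0.0629 for replicates 1, 2 and 3), without WT leaves replicate 2 (0.0530) and without both leaf arrays numbered 1 (-0.87, adjusted p = 0.0987). The other 3 cytokinin genes were not called. UGT76C1 and UGT76C2, the cytokinin N-glucosyltransferases, had leaf changes of 0.13 and -0.18, and UGT73C1 was absent on all 12 arrays.

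UGT76E11 (AT3G46670) belongs to a group of enzymes that accept hydroxylated jasmonates and flavonols. It read 63.1, 46.2 and 54.0 in pdx1.3 leaves, against 19.8, 30.6 and 32.4 in WT leaves, without overlap (0.70, SE 0.13, adjusted p = 0.0058). It was absent on all 6 root arrays, so no root change can be read. Its list relatives UGT76E1 and UGT76E12 were absent on all 12 arrays, and UGT76E2 was absent on all WT leaf arrays (0.24, adjusted p = 0.361).

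No gene of the lists for abscisic acid (4 measured), salicylate and benzoates (7), auxin (4), stress (4), sterols (2) or glucosinolates (1) was called by limma in leaves. At an unadjusted p under 0.05 these lists held UGT71C5, UGT74E2 and AT2G31790, with a background of 21.2% of all probe sets. The 2 genes listed for brassinosteroids have no probe set of their own. In the abscisic acid list UGT71C5, an enzyme of abscisic acid glucose ester formation, had signals of 45.4, 73.3 and 52.6 in pdx1.3 leaves, against 137, 81.9 and 75.6 in WT leaves. The groups did not overlap, and its change of -0.62 was not called (adjusted p = 0.0777). Without WT leaves replicate 1 it was -0.39 (adjusted p = 0.181), and without both leaf arrays numbered 1 it was -0.27 (adjusted p = 0.368). With all arrays it was called after quantile normalization (-0.67, adjusted p = 0.0432) and after centring each array on its median (-0.69, adjusted p = 0.0384). UGT71B6, which accepts abscisic acid, rested on 1 array: its signals were 13.0, 12.3 and 21.7 in pdx1.3 leaves and 47.2, 8.6 and 5.0 in WT leaves. The change was -0.03 (adjusted p = 0.980), and 0.46 without WT leaves replicate 1 (adjusted p = 0.0495).

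Of the salicylate genes, UGT74F1 and UGT74F2 had leaf changes of 0.12 and -0.21. UGT75B1 (0.38, adjusted p = 0.294), UGT71C3 (0.02) and UGT76D1 (0.01) were not called either. UGT74F1 and UGT71C3 were absent on all leaf arrays. Of the auxin genes, UGT74D1 and IAGLU had changes of 0.08 and 0.13, UGT84B1 was absent on all 12 arrays, and UGT74E2, outside the 60, had 0.90 (adjusted p = 0.0982). The genes UGT73B1, UGT73B4 and UGT73B5 of the stress list had changes between -0.38 and 0.07. The single glucosinolate locus AT2G31790, outside the 60, had 0.97 (adjusted p = 0.0844).

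**Figure D2:**
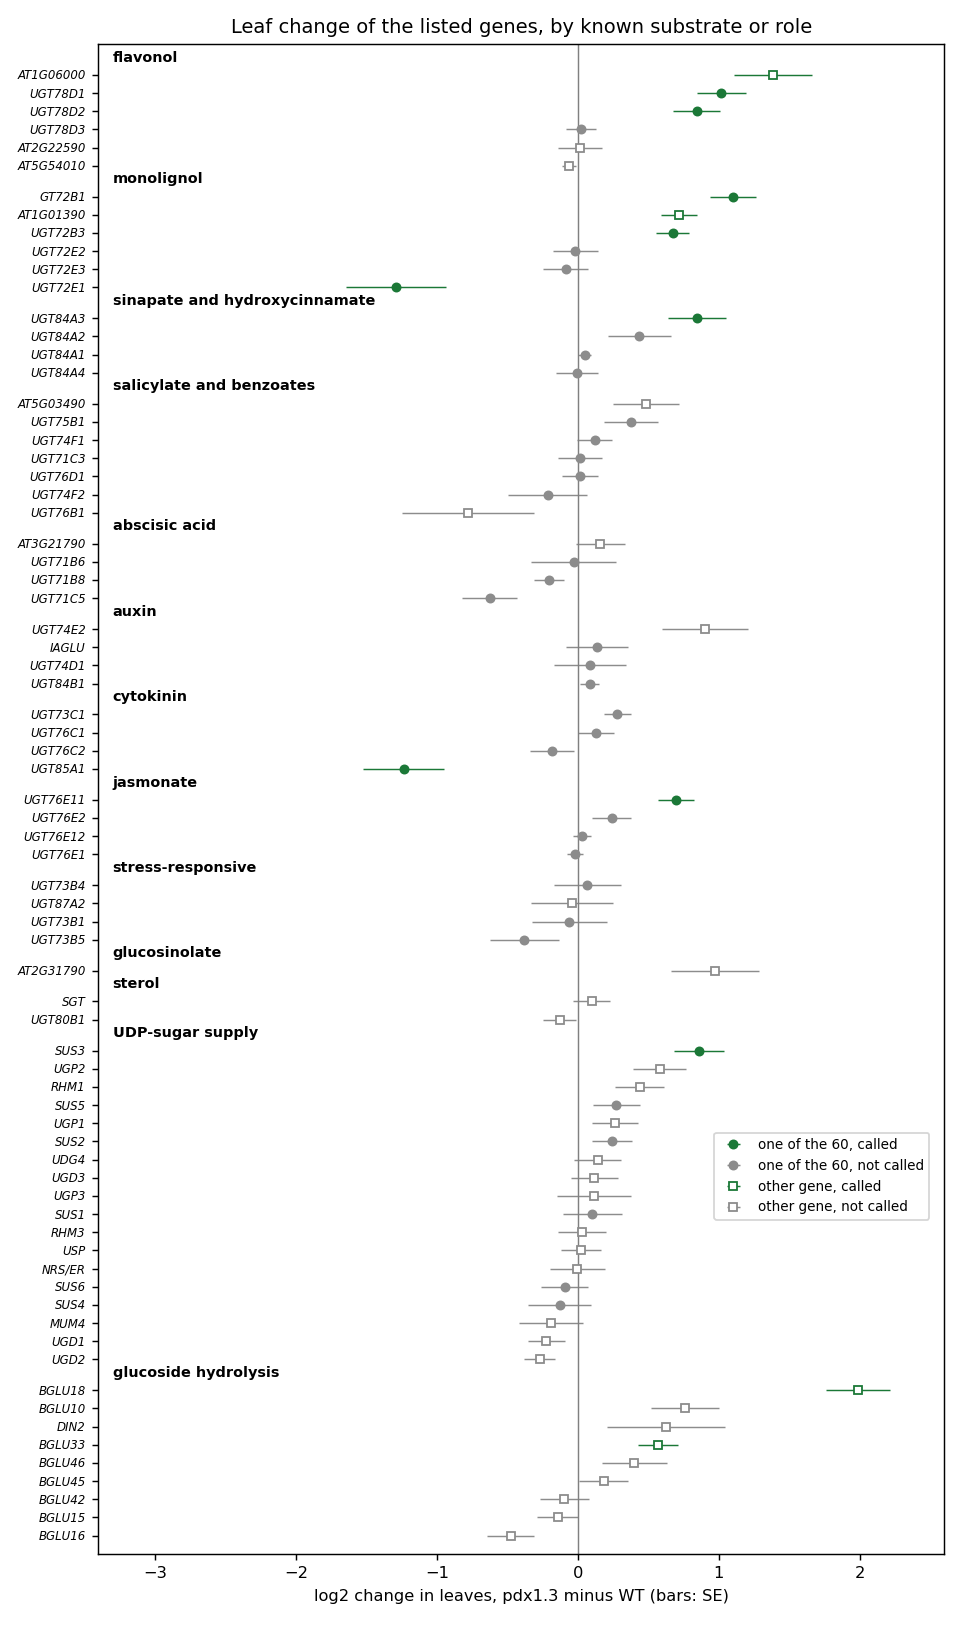
Log2 change in leaves (pdx1.3 minus WT, with SE bars) of every measured gene of the lists, by known substrate or role, with filled circles for the 60 genes, open squares for others and green for called genes. Calls to the right lie in the flavonol, monolignol, sinapate, jasmonate, UDP-sugar and glucoside hydrolysis lists, and calls to the left are UGT72E1 and UGT85A1.

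The remaining calls in leaves were made in genes whose substrate in the plant is not well known. UGT85A5 (AT1G22370) read 61.7, 81.6 and 61.9 in pdx1.3 leaves, against 34.2, 18.7 and 21.6 in WT leaves, without overlap, and changed by 1.06 (SE 0.18, adjusted p = 0.0034). UGT71C4 (AT1G07250) read 264, 292 and 291 in pdx1.3 leaves, against 213, 170 and 149 in WT leaves, and changed by 0.64 (SE 0.14, adjusted p = 0.0180). Its call was lost without pdx1.3 leaves replicate 2 or 3 and without WT leaves replicate 2 or 3 (adjusted p up to 0.0675). UGT71B1 (AT3G21750) had 142, 93.6 and 95.6 in pdx1.3 leaves and 59.9, 59.5 and 79.4 in WT leaves, with 1 mutant array well above the others. Its change of 0.61 (SE 0.17, adjusted p = 0.0477) was called in only 1 of the 12 fits without 1 array, that without WT leaves replicate 3, and was 0.44 (adjusted p = 0.154) without pdx1.3 leaves replicate 1.

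UGT85A4 (AT1G78270) was lower, with 25.4, 19.7 and 22.5 in pdx1.3 leaves, against 89, 46.0 and 45.3 in WT leaves. The change of -0.94 (SE 0.19, adjusted p = 0.0114) was -0.68 without WT leaves replicate 1 (adjusted p = 0.0143) and was still called. All 3 genes called lower had their highest WT signal on WT leaves replicate 1, against 5 of the 10 genes called higher. Its part in the size of these changes can be read from the values without it above, and the calls themselves were kept in each.

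The sucrose synthases cleave sucrose with UDP to give UDP-glucose and fructose, and so feed the reaction that the UGT enzymes use. SUS3 (AT4G02280) had signals of 69.2, 48.8 and 37.1 in pdx1.3 leaves, against 22.1, 18.6 and 21.3 in WT leaves. The groups did not overlap, the mutant arrays were the more spread, and the change was 0.86 (SE 0.17, adjusted p = 0.0108). The leaf changes of SUS1, SUS2, SUS4, SUS5 and SUS6 lay between -0.13 and 0.27, and none was called. Of the 12 measured genes of UDP-sugar supply outside the 60, among them the UDP-glucose pyrophosphorylases, UDP-glucose dehydrogenases and rhamnose synthases, 0 were called by limma in leaves and 3 had an unadjusted p under 0.05. Over all probe sets these shares were 7.22% and 21.2%. The smallest adjusted p of the 12 was that of UGP2 (0.58, adjusted p = 0.0921). The lipid synthases MGD1, DGD2 and SQD2 had changes of 0.08, -0.23 and -0.01, and EPC1 had -0.15.

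The opposite reaction, removal of glucose by beta-glucosidases, was looked at in 9 measured genes outside the 60. In leaves 2 were called higher and 0 lower, against 4.7% and 2.51% of all probe sets. BGLU18, which releases abscisic acid from its glucose ester, read 900, 747 and 782 in pdx1.3 leaves, against 145, 162 and 295 in WT leaves (1.99, adjusted p = 0.0003), and BGLU33 changed by 0.57 (adjusted p = 0.0320).

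The comparison of pdx1.3 with WT roots asked the same question of the other organ. By limma 0 of the 60 genes were called in roots, against 0.809% of all probe sets. At an unadjusted p under 0.05 the count was 6 of 60, with a background of 6.85% of all probe sets, and mutant and WT arrays were fully separated in 6 of 60 genes, with a background of 11.1%. The median change was -0.01, against 0.01 over all probe sets. No gene of the substrate lists, and none of the UDP-sugar or beta-glucosidase genes, was called by limma in roots. Of these lists UGT78D1, AT1G06000, GT72B1, UGT72B3, UGT74D1, UGT73B1 and BGLU16 had an unadjusted p under 0.05. Among the 8 root markers IRT1 was called lower in pdx1.3 roots (-0.95, adjusted p = 0.0257), and the summed signal of the 8 was 1433 to 1603 in pdx1.3 roots and 1408 to 2109 in WT roots.

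The smallest adjusted p in roots was that of UGT88A1 (AT3G16520). It read 38.3, 25.8 and 51.8 in pdx1.3 roots, against 63.4, 80.3 and 76.2 in WT roots. In leaves its signals were 1473, 1304 and 1370 for pdx1.3, against 1338, 1236 and 1399 for WT. The root groups did not overlap and the leaf groups did. The root change was -0.73 (SE 0.16, adjusted p = 0.0604), and it became a call once pdx1.3 roots replicate 3 was left out (-0.90, adjusted p = 0.0090), after centring on the median (adjusted p = 0.0438) and with only probe sets present on all arrays of a group (adjusted p = 0.0398). This gene is high in leaves, and the 4 leaf markers moved the same way in roots, with a summed signal of 183 to 335 in pdx1.3 roots and 305 to 630 in WT roots. Their part in the result was not tested. UGT73B1 read 13.9, 14.2 and 42.7 in pdx1.3 roots, against 29.7, 55.4 and 54.8 in WT roots. It was called only in the fit without pdx1.3 roots replicate 3 (-1.03, adjusted p = 0.0397), against -0.71 (adjusted p = 0.469) with all arrays.

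**Figure D3:**
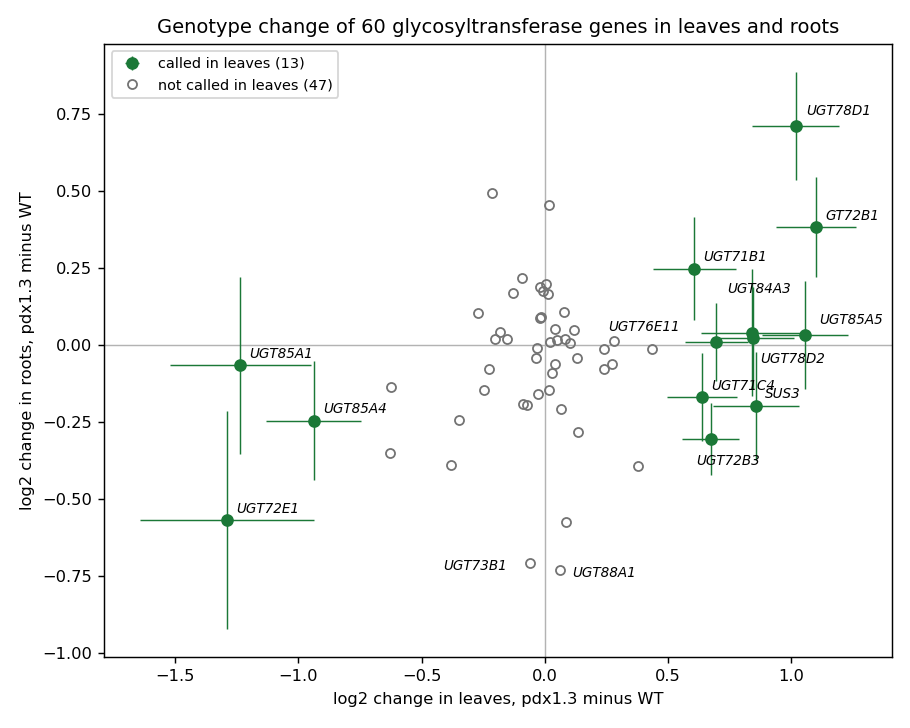
Log2 change in roots against log2 change in leaves (pdx1.3 minus WT) of the 60 genes, with SE bars on the 13 called in leaves. The called genes spread from -1.29 to 1.10 along the leaf axis, while all 60 lie between -0.73 and 0.71 on the root axis.

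Whether the genotype change differs between the organs was tested as an interaction, the change in leaves minus the change in roots. It was called for 1 of the 60 genes (1.67%), against 1.87% of all probe sets, and 12 genes had an unadjusted p under 0.05, with a background of 13.2%. The gene is UGT72B3. Its signals were higher in pdx1.3 leaves, as given above, and in roots they were 21.2, 19.7 and 17.2 in pdx1.3, against 29.1, 29.3 and 25.0 in WT. Mutant and WT arrays did not overlap in either organ, and they lay in opposite order. The interaction was 0.98 (SE 0.17, adjusted p = 0.0125), while the root change of -0.31 alone was not called (adjusted p = 0.490).

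For the other 12 genes called in leaves the interaction was not called, so a different change in the organs was not shown for them. The nearest were SUS3 (1.06, adjusted p = 0.0521), UGT85A5 (1.03, 0.0571), UGT71C4 (0.81, 0.0645) and UGT76E11 (0.69, 0.0788). Each of the first 3 was called in some fits without 1 array: SUS3 when replicate 3 of pdx1.3 leaves (adjusted p = 0.0322) or of pdx1.3 roots (0.0321) was left out, UGT85A5 without pdx1.3 roots replicate 3 (0.0327) or WT leaves replicate 1 (0.0222), and UGT71C4 without WT leaves replicate 1 (0.0231). UGT84A3 was also called without WT leaves replicate 1 (1.05, adjusted p = 0.0367, against 0.80 and 0.227 with all arrays), and UGT88A1 once pdx1.3 roots replicate 3 was left out (0.96, adjusted p = 0.0300). UGT85A5, UGT84A3 and UGT76E11 were at or near background in roots. UGT85A5 was absent on 2 of 3 arrays in pdx1.3 roots and 1 of 3 in WT roots, and UGT84A3 on 2 of 3 in each. For UGT78D1, which lay higher in the mutant in both organs, the interaction was 0.31 (adjusted p = 0.687), and 0.17 without pdx1.3 roots replicate 2. Across the 60 genes the leaf and root changes correlated at r = 0.31, against 0.22 over all probe sets. This describes genes of the same arrays, which are not independent.

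The last comparison, WT leaves against WT roots, shows where each gene is normally high. It was called for 37 of the 60 genes (61.7%), against 52.5% of all probe sets. Of these 16 were higher in WT leaves, where 20.9% of all probe sets were called higher, and 21 were lower, where 31.7% were called lower. Centring each array on its median turned this split to 25 higher and 19 lower, and moved the median of all probe sets from -0.05 to 0.12. The signals did not overlap in 43 of the 60 genes, with a background of 59.2%. A probe set called present on all 3 arrays of a group was found for 32 of the 60 genes in pdx1.3 leaves, 32 in WT leaves, 40 in pdx1.3 roots and 39 in WT roots, with backgrounds of 61.3, 59.1, 67.5 and 67.7%. All 12 arrays called 26 genes present (background 52.8%) and 10 absent (background 17.1%).

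**Figure D4:**
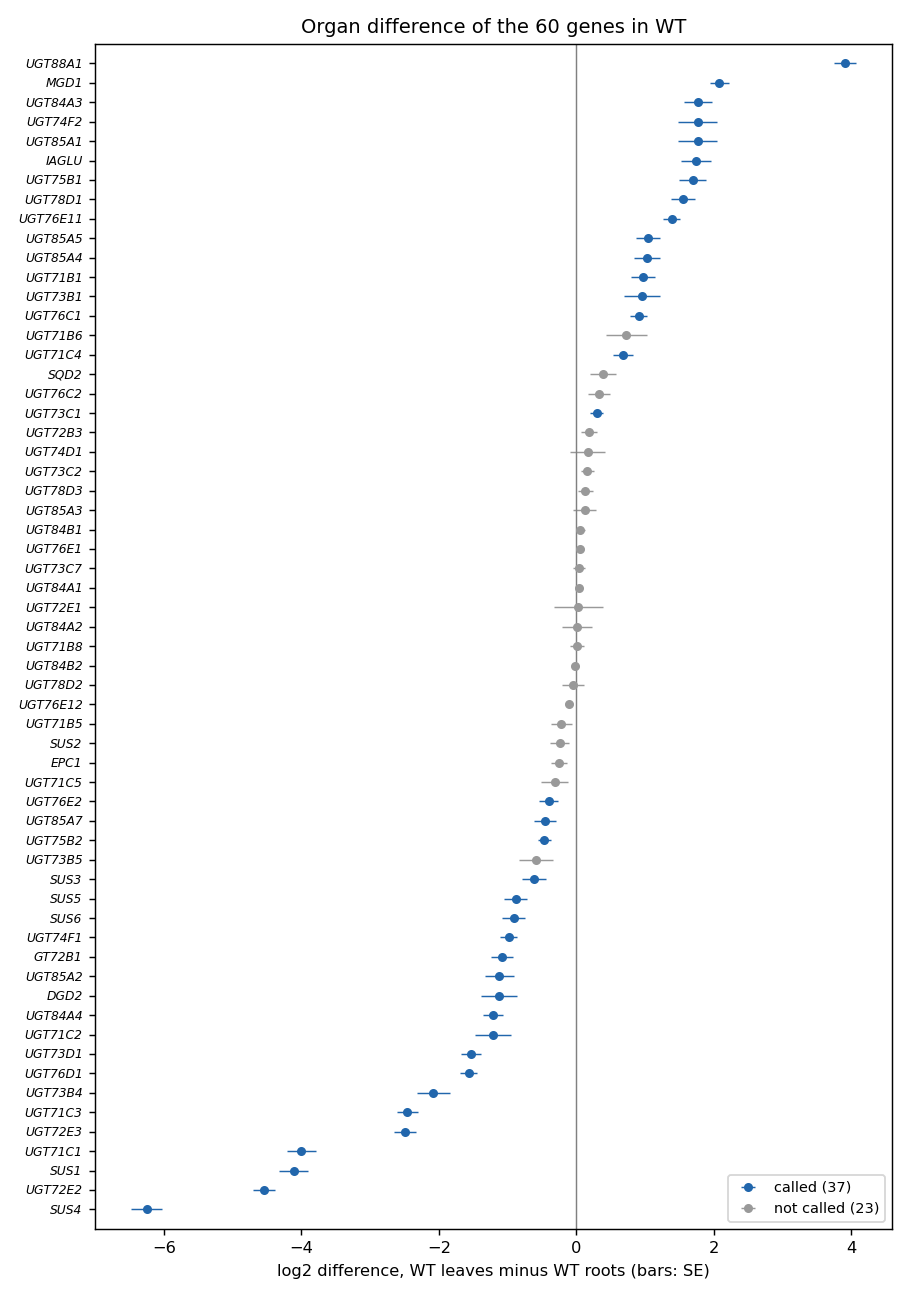
Log2 difference between WT leaves and WT roots (leaves minus roots, with SE bars) for the 60 genes in order, blue where called. The ends are UGT88A1 at 3.91 and SUS4 at -6.25.

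On the leaf side UGT88A1 had the highest difference, with 1325 ± 82.4 in WT leaves and 73.3 ± 8.78 in WT roots (SD, n = 3 each), a log2 difference of 3.91 (SE 0.16, adjusted p = 4.24e-10). MGD1, the main galactolipid synthase of the chloroplast, read 411, 489 and 471 in WT leaves, against 77.0, 104 and 108 in WT roots (2.08, adjusted p = 5.55e-08). UGT84A3 followed at 1.77, UGT74F2 at 1.77, UGT85A1 at 1.76 and IAGLU, named for indole-3-acetate glucosylation, at 1.74. Without WT leaves replicate 1 their order changed, with UGT84A3 at 1.52, UGT74F2 at 1.44, UGT85A1 at 1.43 and IAGLU at 1.66, all still called. For IAGLU the signals were 215, 157 and 199 in WT leaves, against 46.0, 39.8 and 50.1 in WT roots, far apart in every array.

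On the root side SUS4, a sucrose synthase known to respond to low oxygen, read 6.4, 9.5 and 6.7 in WT leaves, against 2152, 1455 and 1782 in WT roots (-6.25, SE 0.22, adjusted p = 1.36e-10). It was called absent on 2 of the 3 WT leaf arrays. SUS1 read 46.5, 52.5 and 58.8 in WT leaves, against 1266, 997 and 1264 in WT roots (-4.11, adjusted p = 3.16e-09). Of the 6 sucrose synthases 5 were called lower in WT leaves, against 31.7% of all probe sets, and SUS2 was absent on all 12 arrays. In the mutant SUS4 kept this pattern, with 4.0, 4.8 and 7.8 in pdx1.3 leaves, against 2122, 2778 and 1348 in pdx1.3 roots.

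UGT72E2, a monolignol glucosyltransferase, read 29.5, 18.6 and 25.6 in WT leaves, against 983, 1012 and 796 in WT roots (-4.55, adjusted p = 1.24e-10). UGT71C1, UGT72E3 and UGT71C3 were absent on each WT leaf array, which gives a bound in place of a fold. The bound sets the mean level in roots against the higher of the gene's own signal and the lowest signal called present on each leaf array, all as means of log2 values after 16 was added, so it understates the ratio of the signals themselves. The lowest present signal belongs to another probe set and is not a detection limit of the gene, so the bound is approximate. By this bound levels in WT leaves were lower than in WT roots by 15.0-fold for UGT71C1, 5.50-fold for UGT72E3 and 5.32-fold for UGT71C3. In UGT71C1 the signals were 1.6, 1.3 and 0.3 in WT leaves, against 298, 311 and 181 in WT roots. These genes belong to 6 that were present on all 6 root arrays and absent on all 6 leaf arrays, whatever the genotype, with UGT73B4, UGT74F1 and UGT73D1. The opposite pattern was found in UGT76E11 alone, with a bound of 2.50-fold higher in WT leaves than in WT roots.

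By role, 6 of the 7 salicylate genes were called between the WT organs, against 52.5% of all probe sets, 2 higher in leaves (UGT74F2 and UGT75B1) and 4 lower (UGT71C3, UGT76D1, UGT74F1 and, outside the 60, UGT76B1). Of the 4 cytokinin genes UGT85A1, UGT76C1 and UGT73C1 were called higher in leaves, against 20.9% of all probe sets, and the last was absent on all arrays. UGT85A7 was likewise called while absent on all arrays, so neither has a fold to report. Of the 13 genes called between the genotypes in leaves, 10 were called between the WT organs, against 61.7% of the 60 genes and 52.5% of all probe sets. In 8 of the 13 (UGT78D1, UGT84A3, UGT85A1, UGT76E11, UGT85A5, UGT85A4, UGT71B1 and UGT71C4) WT leaves were higher, and in GT72B1 and SUS3 WT roots were. Over all probe sets 20.9% were called higher in WT leaves and 31.7% lower. A link between the calls of the 2 comparisons was not tested.

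Many UGT genes lie in tandem groups, and neighbours can be compared without a choice of function. By order in the TAIR10.1 gene table, 36 of the 50 UGT genes fell into 15 groups of genes at most 3 places apart. In leaves 6 of these groups held a gene called between the genotypes, where 7.22% of all probe sets were called. In 0 of them were all members called. Among these groups UGT85A7, UGT76E12, UGT84A1 and UGT78D3 were absent on all 12 arrays, and UGT71C3 on all leaf arrays. Their groups could hardly be called in full, so this 0 says little of how neighbours change. The group of UGT85A genes held calls of both directions, UGT85A5 higher and UGT85A1 lower in pdx1.3 leaves, while UGT85A2, UGT85A3 and UGT85A7 were not called. UGT71C4 was called higher and its neighbour UGT71C5 had the change of -0.62 given above. Between the WT organs 5 groups held calls of both directions: UGT75B1 and UGT75B2, UGT71C3 and UGT71C4, the UGT85A genes, UGT74F1 and UGT74F2, and UGT84A3 and UGT84A4. In UGT75B1 the signals were 86.8, 83.1 and 88.4 in WT leaves, against 9.7, 16.0 and 22.3 in WT roots (1.69). UGT75B2 was absent on all WT leaf arrays and was lower in WT leaves than in WT roots by 1.35-fold, an approximate bound made as above. In 1 group, UGT71C1 and UGT71C2, all genes were called in the same direction.

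**Figure D5:**
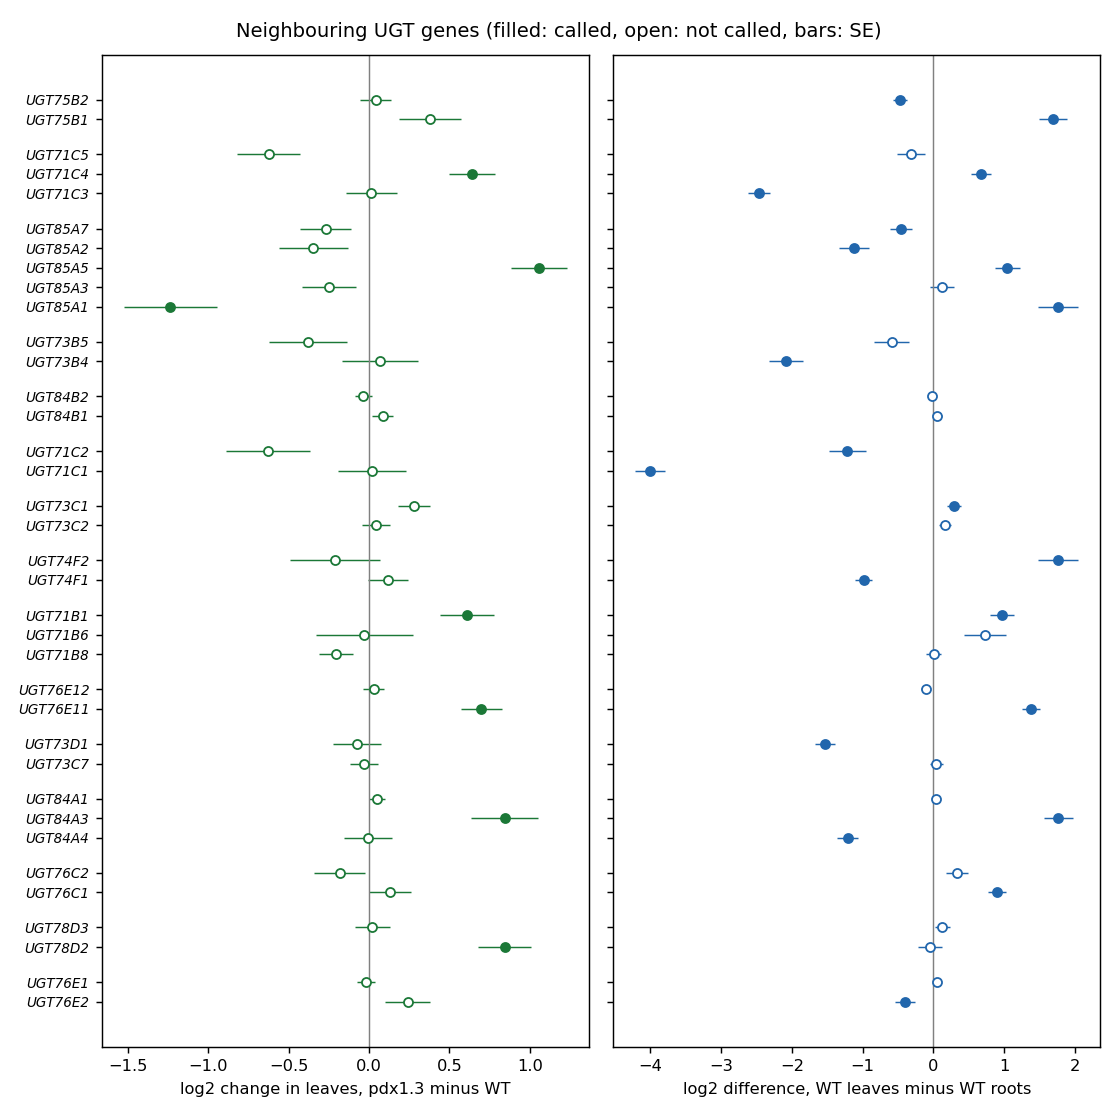
Log2 change in leaves (left, pdx1.3 minus WT) and log2 difference between organs (right, WT leaves minus WT roots) of 36 UGT genes in 15 tandem groups, with SE bars and filled symbols where called. Neighbours can differ, as UGT85A5 and UGT85A1 do in leaves and UGT71C3 and UGT71C4 do between organs. Some of the genes shown were absent on all 12 arrays.

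The authors' deposited table gives its own comparison, with a fold change and, for the 9 pairings of a mutant with a WT array, the number that changed. At a fold of at least 2 and at least 7 of the 9 pairs, with the fold that the authors' deposited table heads GCOS, it passes 8 of the 60 genes in leaves, all among the 13 called here: UGT85A5, UGT85A1, UGT78D1, UGT76E11, UGT72E1, SUS3, UGT84A3 and UGT78D2. With the other fold column of the authors' deposited table GT72B1 passes too (2.33, 8 of 9 pairs) and UGT78D2 does not (1.92). In roots the authors' deposited table passes, by either column, UGT78D1, with a GCOS fold of 3.05 and 7 of 9 pairs, and UGT73B1, with a GCOS fold of -2.32 (lower in the mutant) and 7 of 9 pairs. Neither was called in roots by limma with all arrays. These counts come from the same arrays as the calls above, and the share of all probe sets that passes was not counted.

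The same words in the wider annotation mark 46 further single-locus probe sets outside the 60. Of these, 5 were called in leaves, all higher in pdx1.3, against 7.22% of all probe sets, and 3 in roots, all higher in pdx1.3, against 0.809%. The 3 probe sets that name several loci were not called by limma in either organ at the settings used throughout, while 3 in leaves and 2 in roots had an unadjusted p under 0.05. That shared by AT4G34131 and AT4G34135 read 121, 111 and 118 in pdx1.3 leaves, against 360, 169 and 214 in WT leaves, without overlap, with a change of -0.93 (adjusted p = 0.0754). In roots its difference was -1.06 (adjusted p = 0.164), also without overlap. Without pdx1.3 roots replicate 3 it was called in leaves (adjusted p = 0.0187) and in roots (-1.43, adjusted p = 0.0079), and in leaves also after centring on the median (adjusted p = 0.0413) and with only probe sets present on all arrays of a group (0.0450). Without WT leaves replicate 1 the leaf change was -0.64 (adjusted p = 0.194). The probe set of AT1G73880 and AT1G73885 had changes of 0.33 in leaves (adjusted p = 0.185) and -0.35 in roots (0.536), and that of AT2G36790 and AT2G36800 had 0.42 in leaves (0.181) and 0.20 in roots.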

How the data were processed

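The members and all gene lists were chosen with earlier results of these data known. Per the submitters' processing notes and the file headers, the authors made a signal intensity per probe set from 12 ATH1 arrays with MAS5 in GCOS (versions not given in the sources used here), scaled each array and made calls of present, marginal or absent, and per the labels' protocols each sample started from 500 ng of total RNA. The authors deposited, per the file headers, a signed fold change score, an unadjusted p-value and counts of the 9 array pairs with a change call. The deposited intensity values were used without further normalization. They stand in 2 tables, of which that with more decimals was used, and 70 of 720 values of the 60 genes differed by more than 0.051 between them.

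Of 22810 probe sets, 64 controls were left out. Limma 3.58.1 in R 4.3.3 fitted 4 group means to log2(signal + 16) over 12 arrays with a variance trend, and tables were made in Python 3.11.15. Benjamini-Hochberg adjustment ran over 22746 probe sets. The fit was tested on simulated data. Of probe sets, 21442 name 1 locus, 1215 several and 89 none, and symbols come from the RefSeq gene table of TAIR10.1, in which all 60 were found. The rule for named genes gave all members called between genotypes, all measured list members, and the 6 largest organ differences in each direction, though list genes outside the 60 are counted and only in part described. EPC1, DGD2, SQD2 and the tandem neighbours that this rule does not name were named after their values were seen. The files name no genome build, so no coordinates are given. The number of arrays limits the precision. Replicates correlated at r of 0.968 to 0.992 across probe sets. Alternatives were other normalizations, constants, filters, thresholds and subsets of arrays.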

Additional observations from a re-analysis of the deposited data

Results flagged for a closer look

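UGT72B3 was the 1 gene of the 60 (1.67%, against 1.87% of all probe sets) called in the test of the difference between organs. The interaction was 0.981 on the log2 scale (limma adjusted p = 0.0125), and the settings that lose this call are given below. UGT72B3 was higher in 3 of 3 pdx1.3 leaf arrays than in every WT leaf array, and lower in 3 of 3 pdx1.3 root arrays than in every WT root array. The root change alone was not called (limma adjusted p = 0.490).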

How the results depend on the processing

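Of the 13 leaf calls, 2 (UGT78D1 and GT72B1) were kept in all alternatives at the 0.05 threshold and 8 in all 12 fits without 1 array. Percentages in brackets are the shares called of all probe sets fitted at the same setting. The leaf count was 6 at a threshold of 0.01 (2.85%), 5 with at least 2-fold change (2.11%) and 3 with the leaf arrays alone (2.27%). In the fits without 1 array it was 8 to 13 (4.62 to 7.3%), with 8 without pdx1.3 leaves replicate 3. It was 13 (9 higher, 4 lower) after quantile normalization (7.09%) and after centring (7.39%), with UGT71C5 added and UGT71B1 lost. With a constant of 1 it was 9 (6.05%), and with the filter on present calls it stayed at 13 (10.9%). Without both leaf arrays numbered 1 it was 10 (6.47%), of which 9 were shared. The root count of 0 became 1 (UGT88A1) after centring (0.941%) and with the filter on present calls (1.51%). Without 1 array it was 0 to 2 (0.33 to 1.69%), with 2 without pdx1.3 roots replicate 3. The interaction count of 1 became 0 at 0.01 (0.396%) and with at least 2-fold change (1.35%). It was 2 after centring (1.97%) and without the variance trend (2.11%), and 4 with a constant of 64 (2.52%). It was 3 with the filter (3.44%) and without both leaf arrays numbered 1 (2.45%). Without 1 array it was 1 to 4 (0.602 to 2.44%), with 4 without pdx1.3 roots replicate 3 or WT leaves replicate 1. The organ count of 37 was 44 (25 higher, 19 lower) after centring (60.2%) and 25 with at least 2-fold change (25.5%). Without 1 array it was 35 to 41 (47.4 to 53.4%), and 34 of the 37 calls were kept in all alternatives (not UGT85A7, UGT73C1 and UGT76E2). Without WT leaves replicate 1, and without both leaf arrays numbered 1, the leaf change of UGT71B6 reversed to 0.46 and 0.52, and the organ difference of UGT72E1 reversed from 0.03 to -0.51 and -0.51 (over the fits without 1 array they ran from -0.33 to 0.46 and from -0.51 to 0.31). Of the values of single genes under alternatives, 5028 kept their direction and side of the threshold, 74 lost a call, 50 gained one and 4 reversed. Why a call changed was not tested, apart from the fewer arrays or stricter limit that a setting brings by construction. Same-numbered mutant and WT arrays did not deviate together (r of -0.089 to -0.007 in leaves and -0.211 to -0.045 in roots). Same-numbered leaf and root arrays had r of 0.163, -0.173 and 0.348 in pdx1.3 and -0.072, -0.096 and -0.085 in WT. Other pairings of leaf and root arrays ran from -0.370 to 0.309 in pdx1.3 and from -0.077 to 0.145 in WT. With 3 arrays in each group this check cannot exclude that some samples were paired by number. With the replicate block the counts were 10 in leaves (4.27%), 0 in roots (0.391%) and 36 between organs (49.5%). For the interaction the count was 0 (0.594%), with an adjusted p of 0.0768 for UGT72B3. No gene had a second probe set naming it alone, so that alternative gave no value.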
